A study of Mus musculus with 8 samples.

Results

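The genes described here are 35 markers of Kupffer cells, monocytes and myeloid cells at large, followed in the liver of mice that carry a nonsense allele of Jag1 and of their wild-type counterparts. They were picked by symbol, and every probe of the bead array that carries one of these symbols was taken. Of the 35 genes, 32 had a probe named in the platform annotation, 51 probes in all of the 25697 on the array. Cd68, Csf1r and Mpeg1 were not analysed here. A gene was tested if at least 1 of its probes had a detection p-value under 0.05 on at least 4 of the 8 arrays, which held for 23 of the 35 genes, through 28 of the 11412 probes tested across the array. The probe with the highest mean signal stood for each gene.

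Total RNA came from the liver of 8 male mice of strain C3HeB/FeJ, 21 weeks old, with 1 mouse per array. The wild-type group held 4 mice, and the other group held 4 mice heterozygous for Jag1K295*/+, an allele in which a lysine codon of the Notch ligand gene Jag1 is replaced by a stop codon. Titles of the latter 4 samples carry the word hom, but their genotype label and the series' design text give heterozygous, which was followed here. The allele is a change of the gene itself in every cell, so no promoter or Cre line limits it to a cell type, and the labels describe no treatment. The series title names the mice as a model for Alagille syndrome, an inherited disorder of bile duct formation, and the comparison asks whether the liver transcripts of its resident macrophages differ with the genotype.

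Kupffer cells are the macrophages that live in the liver sinusoids, where they take up bacteria, complement-coated particles and worn-out red cells from the blood. They carry scavenger and complement receptors that recently arrived monocytes mostly lack, while C1q, lysozyme, Fc receptors, lysosomal proteases and the phagocyte oxidase are shared by macrophages in many tissues. In whole liver the hepatocytes supply most of the RNA. A lower signal in such bulk RNA can come from fewer cells of a type or from less RNA per cell, and these cannot be told apart here.

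Mean signals per array were 438 to 488 in wild type and 422 to 453 in heterozygous liver, and 11022 to 11873 probes were detected. On the first principal component the wild-type arrays lay at -12.3 to -4.1 and heterozygous replicates 1, 2 and 3 at -0.42 to 6.90, so the genotypes did not overlap. Heterozygous replicate 4 stood farthest out, at 24.3, and the count, the median and the correlations of the members are also given without it. Of 12 hepatocyte markers 8 were tested, with summed normalized signals of 125676 to 128545 in wild type and 125584 to 132336 in heterozygous liver. Among the untested ones, the probe of Alb was detected on 2 arrays and that of Fgb on 0. A probe at background on this array therefore does not show that its transcript is absent. Of the 9 members that define Kupffer cells 6 were tested, and Cd5l, Spic and Folr2 were not above background on any array.

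No member passed the threshold in the comparison of the genotypes. After Benjamini-Hochberg adjustment over all tested probes 0 of the 23 genes had a limma p under 0.05, where 0.00876% of all probes did, and the adjusted p-values of the members lay between 0.356 and 0.997. At an unadjusted limma p under 0.05, 1 gene was lower and 0 were higher, against 5.95% of probes lower and 5.26% higher across the array. The groups did not overlap for 0 of the 23 genes, against 6.25% of all probes. The smallest exact permutation p of a member was 0.0571, and the smallest that 4 arrays against 4 allow is 0.0286.

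The log2 fold change, heterozygous minus wild type, was below 0 for 21 of the 23 genes, where 48.1% of all tested probes were below 0. The median over the members was -0.15, with single genes from -0.45 to 0.16, and the median over all tested probes was 0.01. These genes vary together from mouse to mouse, as described further on, so the 21 values are not 21 separate observations. Without wild-type replicate 1 the count was 16 of 23 and the median -0.10, and without heterozygous replicate 3 it was 16 of 23 with a median of -0.10. Without heterozygous replicate 4 it was 22 of 23 with a median of -0.23. Single genes then stood at -0.56 for Fcna, -0.45 for Cd163, -0.40 for Vsig4 and -0.34 for Mrc1, with limma adjusted p-values of 0.40, 0.52, 0.47 and 0.51. Without heterozygous replicate 3 the same genes, in this order, were at -0.34, -0.10, -0.25 and -0.21. Without wild-type replicate 1 they were at -0.39, -0.22, -0.21 and -0.14. With median scaling in place of quantile normalization 60.3% of all probes were below 0 and their median was -0.04, beside 21 of 23 members and a median of -0.20.

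**Figure D1:**
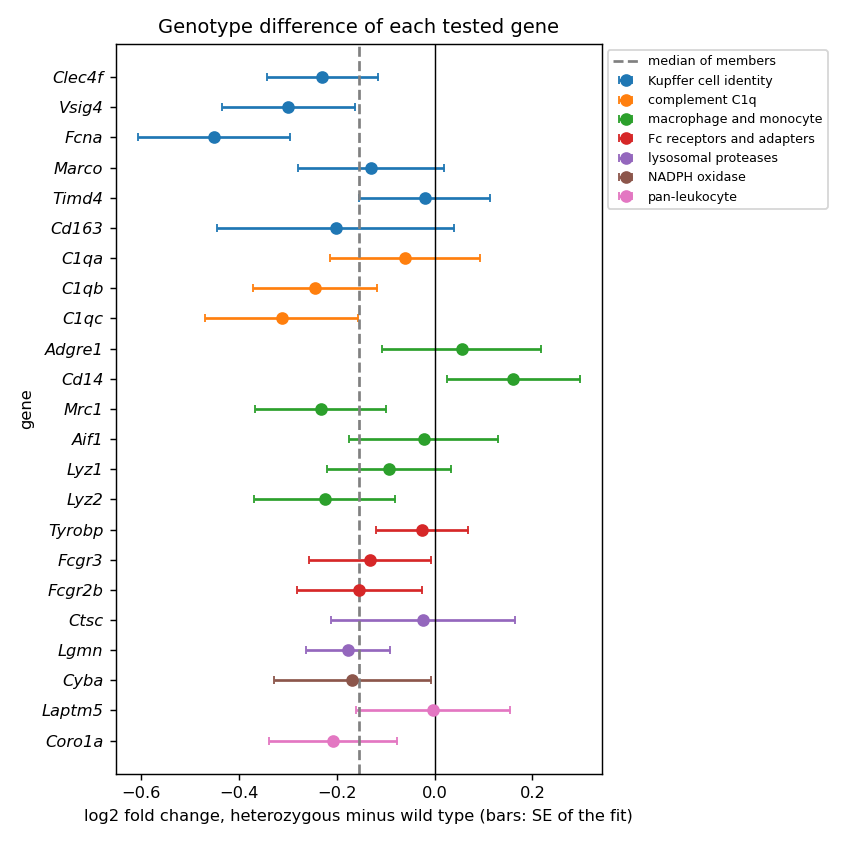
Log2 fold change of each of the 23 tested genes, heterozygous minus wild type, coloured by role. Points are the limma estimates over 4 arrays against 4, bars are standard errors, the solid line marks 0 and the dashed line the median of -0.15; Cd14 and Adgre1 lie above 0.

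Of the 9 genes that define Kupffer cells, 6 were tested, and all 6 were below 0, with a median of -0.22. Fcna encodes ficolin A, a lectin that recognizes sugars on microbes and starts the lectin pathway of complement. Its log2 signals were 9.80, 9.80, 9.34 and 9.55 in the wild-type mice and 9.31, 9.04, 8.83 and 9.51 in the heterozygous mice. Heterozygous replicates 1, 2 and 3 lay below every wild-type mouse, while replicate 4 lay within the wild-type range. The group means were 9.62 ± 0.22 (SD, n = 4) and 9.17 ± 0.30 (SD, n = 4), a fold of 1.37 lower in heterozygous liver. The log2 fold change was -0.45 ± 0.16 (SE; limma adjusted p = 0.356), and under the alternatives its adjusted p ranged from 0.270 to 0.648.

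Vsig4 encodes a complement receptor of the immunoglobulin superfamily with which Kupffer cells capture blood-borne bacteria. Its log2 signals were 8.74, 8.54, 8.21 and 8.37 in the wild-type mice and 8.15, 8.02, 8.02 and 8.47 in heterozygous liver. The same 3 heterozygous mice lay below the wild-type range and replicate 4 within it. The log2 fold change was -0.30 ± 0.14 (SE; limma adjusted p = 0.447). Clec4f, a C-type lectin that in the mouse liver marks Kupffer cells, gave 7.56, 7.77, 7.41 and 7.59 in the wild-type mice and 7.37, 7.35, 7.11 and 7.58 in heterozygous liver. Again replicate 4 was the heterozygous mouse inside the wild-type range, and the log2 fold change was -0.23 ± 0.11 (SE; limma adjusted p = 0.480).

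The other Kupffer cell genes were dimmer. Timd4, a receptor for phosphatidylserine on dying cells that marks long-resident Kupffer cells, gave 5.60, 5.57, 5.77 and 5.78 in the wild-type mice and 5.81, 5.77, 5.24 and 5.82 in heterozygous liver. Heterozygous replicate 3 was below the other 7 mice, which lay between 5.57 and 5.82, and the log2 fold change was -0.02 ± 0.13 (SE). Cd163, the scavenger receptor for haemoglobin bound to haptoglobin, was detected on 5 arrays and spanned 4.94 to 5.70 in wild type and 4.70 to 5.87 in heterozygous liver. Its heterozygous range enclosed that of the wild type, with a log2 fold change of -0.20 ± 0.24 (SE). That value was -0.06 without heterozygous replicate 1 and -0.45 without replicate 4. Marco, a scavenger receptor for bacteria and particles, was likewise detected on 5 arrays, with 4.93 to 5.59 in wild type and 4.78 to 5.24 in heterozygous liver and a log2 fold change of -0.13 ± 0.15 (SE).

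**Figure D2:**
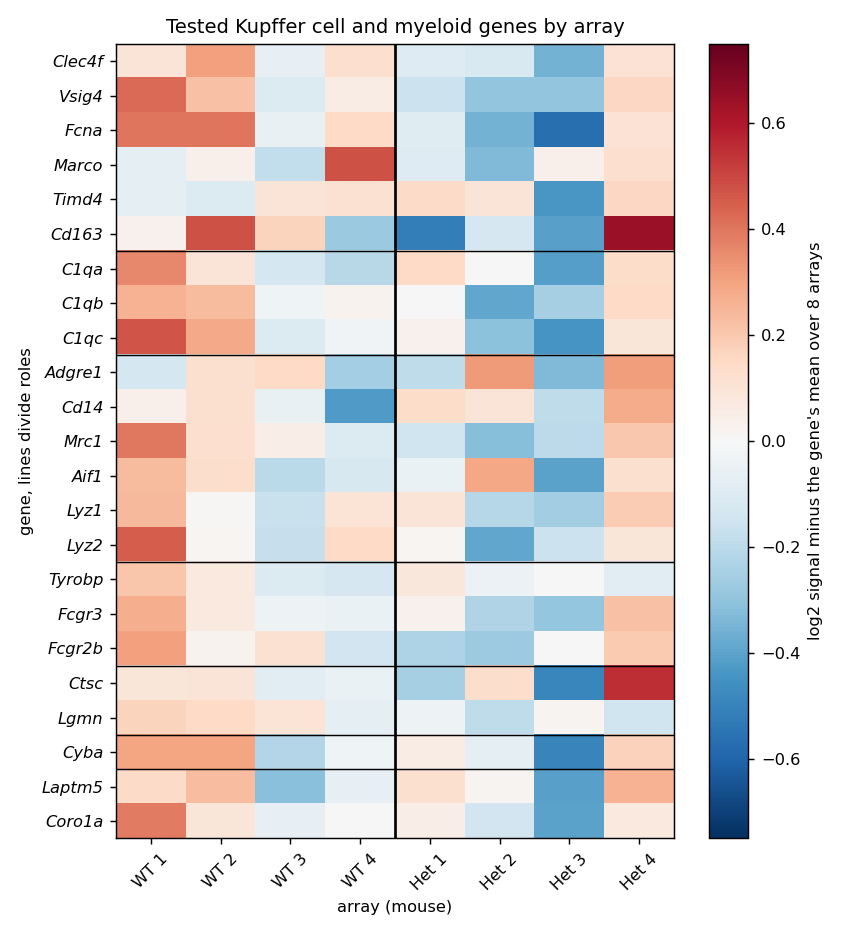
Log2 signal of each tested gene on each array, minus that gene's mean over the 8 arrays, with lines between the roles and between the genotypes. Blue cells fill the column of heterozygous replicate 3, where 20 of 23 genes lay below their own mean, and red cells the columns of wild-type replicates 1 and 2 and heterozygous replicate 4.

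C1q is the recognition molecule of the classical complement pathway, built from 3 chains whose neighbouring genes are expressed together in tissue macrophages. C1qc was 8.57, 8.38, 7.99 and 8.07 in the wild-type mice and 8.12, 7.79, 7.65 and 8.19 in heterozygous liver, with 2 heterozygous mice below the wild-type range. Its log2 fold change was -0.31 ± 0.16 (SE; limma adjusted p = 0.486). C1qb was 7.67, 7.65, 7.38 and 7.44 in the wild-type mice and 7.42, 7.02, 7.17 and 7.56 in heterozygous liver, with the same 2 mice, replicates 2 and 3, below the wild-type range, and its log2 fold change was -0.24 ± 0.13 (SE; limma adjusted p = 0.494). C1qa was 6.80, 6.54, 6.31 and 6.24 in the wild-type mice and 6.59, 6.44, 6.03 and 6.58 in heterozygous liver. Replicate 3 was the 1 heterozygous mouse below the wild-type range there, and the log2 fold change was -0.06 ± 0.15 (SE).

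The macrophage and monocyte genes were mixed in sign, with 4 of 6 tested genes below 0 and a median of -0.06. Mrc1, the mannose receptor, which sinusoidal endothelial cells carry as well, was 9.57, 9.31, 9.23 and 9.08 in the wild-type mice and 9.03, 8.86, 8.98 and 9.38 in heterozygous liver. The first 3 heterozygous mice lay below the wild-type range, and the log2 fold change was -0.23 ± 0.13 (SE; limma adjusted p = 0.546). Cd14, the co-receptor for bacterial lipopolysaccharide, was the highest member, with 5.46, 5.54, 5.37 and 5.0 in the wild-type mice and 5.56, 5.52, 5.23 and 5.70 in heterozygous liver. The groups overlapped, with wild-type replicate 4 the lowest mouse, and the log2 fold change was 0.16 ± 0.14 (SE; limma adjusted p = 0.685). Adgre1, a surface antigen widely used to identify mouse macrophages, was at 0.06 by its brighter probe and at -0.15 by a second one. Aif1, an actin-bundling protein of macrophages, was at -0.02, and its second tested probe at -0.08.

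Mouse macrophages express lysozyme from Lyz2, while Lyz1 is the paralogue of Paneth cells in the intestine. The transcripts are alike enough that a probe named for either gene may read both, so their values are uncertain as to the gene. The brightest Lyz1 probe gave 9.67, 9.44, 9.26 and 9.53 in the wild-type mice and 9.52, 9.21, 9.16 and 9.62 in heterozygous liver. The other Lyz1 probes were detected on 0 arrays, with raw signals of 106 to 124, and so was a further Lyz2 probe. The brighter Lyz2 probe gave 7.81, 7.37, 7.18 and 7.50 in the wild-type mice and 7.37, 6.96, 7.19 and 7.44 in heterozygous liver. The groups overlapped for both, and the log2 fold changes were -0.09 ± 0.13 (SE) and -0.22 ± 0.14 (SE). A dimmer Lyz2 probe had the opposite sign, 0.24 ± 0.17 (SE).

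Among the Fc receptors and adapters 3 of 4 genes were tested and all 3 were below 0. Fcgr2b, the inhibitory receptor for immunoglobulin G, which in liver lies mainly on sinusoidal endothelium, was at -0.15, with 8.45 to 8.90 in wild type and 8.32 to 8.79 in heterozygous liver. Fcgr3, an activating receptor, was at -0.13, and Tyrobp, an adapter that links several myeloid receptors to the kinase Syk, was at -0.03. Their ranges overlapped, and the limma adjusted p-values were 0.682, 0.722 and 0.941.

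Lgmn, the asparaginyl endopeptidase legumain of lysosomes, varied least between mice of a group, with a pooled SD of 0.10. Its log2 signals were 9.34, 9.32, 9.28 and 9.10 in the wild-type mice and 9.14, 8.98, 9.19 and 9.02 in heterozygous liver. Wild-type replicate 4 lay among the heterozygous mice and the other 3 above them, and the log2 fold change was -0.18 ± 0.09 (SE; limma adjusted p = 0.478). Ctsc, the cathepsin that activates granule proteases, had a wild-type range of 5.33 to 5.51 and a heterozygous range of 4.93 to 5.97. Heterozygous replicates 3 and 4 formed its extremes on either side of the wild type, and the log2 fold change was -0.02 ± 0.19 (SE). Cyba, a membrane subunit of the phagocyte oxidase, was 7.13, 7.13, 6.62 and 6.81 in the wild-type mice and 6.89, 6.77, 6.34 and 7.01 in heterozygous liver, overlapping groups with a log2 fold change of -0.17 ± 0.16 (SE).

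Of the genes shared by leukocytes at large, Coro1a, an actin-binding coronin, was at -0.21 ± 0.13 (SE) by its brighter probe. Its second tested probe gave the lowest value after Fcna among the 28 member probes, -0.39 ± 0.15 (SE; limma unadjusted p = 0.0227, adjusted p = 0.385), with 5.22 to 5.88 in wild type and 4.85 to 5.28 in heterozygous liver, which overlap. Laptm5, a lysosomal membrane protein of blood cells, had a log2 fold change of -0.0028 ± 0.16 (SE), with 7.71 to 8.25 in wild type and 7.61 to 8.28 in heterozygous liver.

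Further members had no probe clearly above background, and no fold is given for them. Cd5l, a secreted scavenger protein of macrophages, Spic, a transcription factor of red pulp and other iron-handling macrophages, Folr2, a folate receptor, Fcer1g, the common Fc receptor gamma chain, Cybb, the catalytic subunit of the phagocyte oxidase, Cd53, a leukocyte tetraspanin, and Ptprc, the pan-leukocyte phosphatase CD45, were detected on 0 arrays. Ctss, a cathepsin of antigen-presenting cells, was detected on 2 arrays and Ccl6, a chemokine, on 1, which makes 9 genes with a probe that were not tested. Raw signals of the Ptprc probes ran from 110 to 127, and those of the Cybb probe from 107 to 118, a level at which a difference between genotypes was not detectable.

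The second pattern of these genes was their variation from mouse to mouse within each genotype. The pooled within-group SD had a median of 0.22 over the 23 genes, from 0.10 to 0.43, where the median over all tested probes was 0.15. The same mice were high or low for most of them. Wild-type replicate 1 held the highest value for 14 of the 23 genes and heterozygous replicate 3 the lowest for 13, followed by heterozygous replicate 2 with 7. In heterozygous replicate 4, 2 genes lay below their own mean over the arrays, and in heterozygous replicate 3, 20 did.

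Averaged over the 6 Kupffer cell genes, the log2 signal of the wild-type mice stood 0.14, 0.22, -0.02 and 0.11 from the mean over all arrays, and that of the heterozygous mice -0.14, -0.19, -0.34 and 0.22. The C1q genes stood at 0.36, 0.21, -0.09 and -0.07 in wild type and at 0.06, -0.23, -0.37 and 0.13 in heterozygous liver. In both lists heterozygous replicate 3 was the lowest of the 8 mice and replicate 4 the highest of the heterozygous mice. The number of probes detected was highest on the array of heterozygous replicate 3, 11873, and lowest on that of heterozygous replicate 1, 11022; the part of detection or signal strength in this order was not tested.

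**Figure D3:**
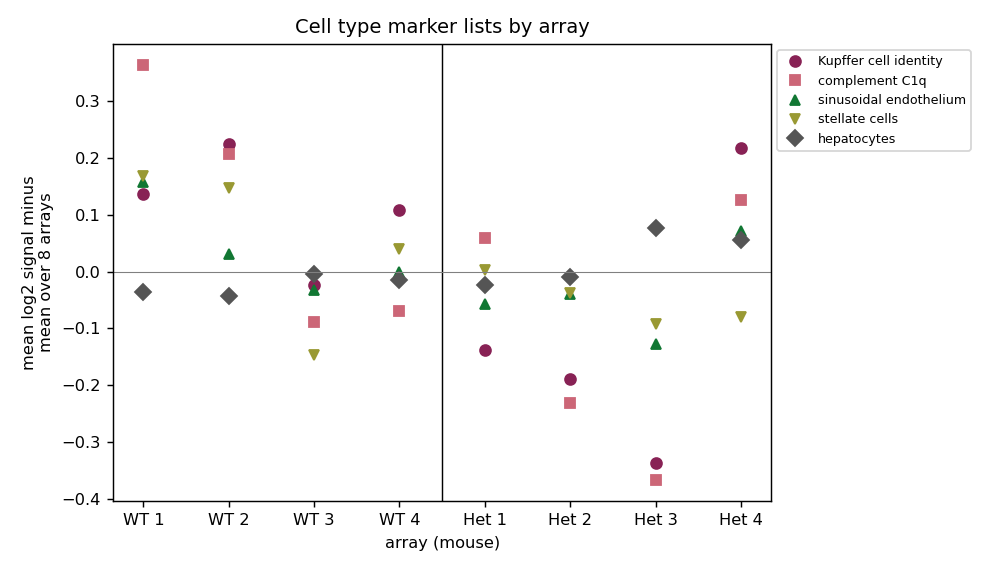
Mean log2 signal of 5 marker lists on each array, minus their mean over the 8 arrays, with 1 symbol per list and mouse. Kupffer cell and C1q genes spread from -0.37 to 0.36, the endothelial genes follow a like order over a narrower range of -0.13 to 0.16, and hepatocyte genes stay between -0.04 and 0.08.

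Deviations from the group means, which leave out the difference between genotypes, were then correlated over the 8 arrays for all 253 pairs of tested members. The median r was 0.54, with 223 pairs above 0 and 79 pairs, 31.2%, above 0.7. Over all pairs of tested probes the median was 0.00025, and 4.60% lay above 0.7. These are descriptions over 8 arrays that share 1 normalization. Pairs within a role, with a median of 0.47 over 38 pairs, were no closer than the 215 pairs from different roles, with 0.54. C1qc, Cyba, Fcgr3, Laptm5, Vsig4, Coro1a and Fcna had the highest median r with the other members, 0.71 to 0.75. Marco, with -0.02, and Lgmn, with -0.0041, had a median r near 0, and Adgre1 one of 0.23. Without heterozygous replicate 4 the median over the 253 pairs was 0.46, with 198 above 0 and 72, 28.5%, above 0.7, an alternative chosen after seeing the data.

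**Figure D4:**
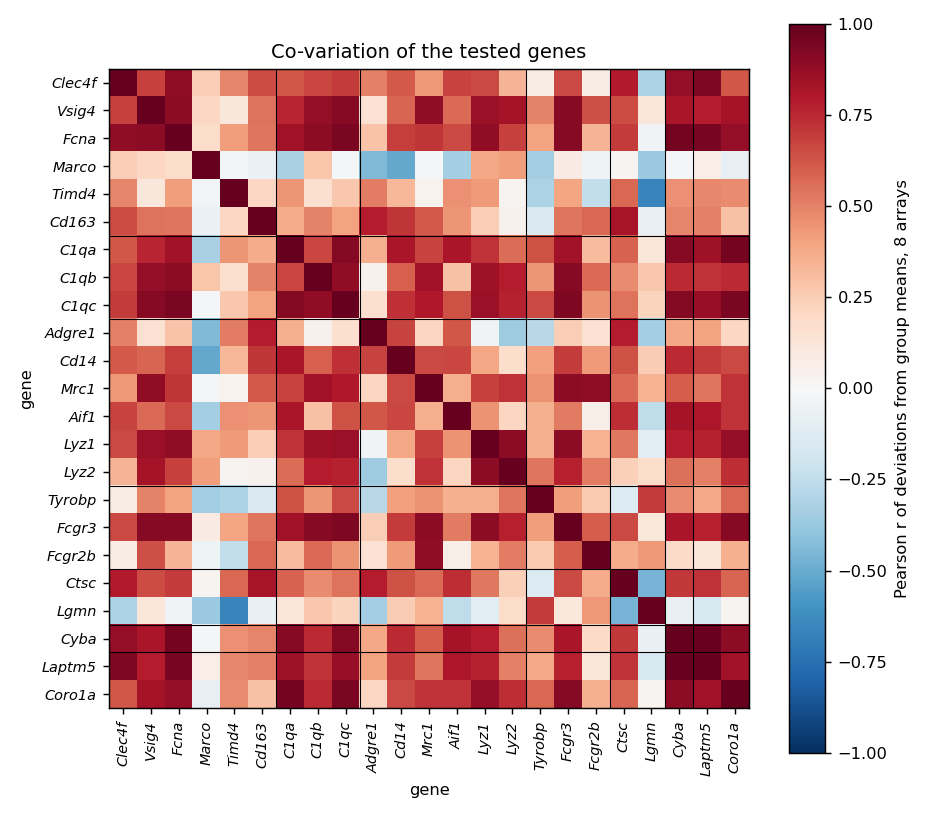
Pearson r of the deviations from group means over 8 arrays for every pair of the 23 tested genes, in the order of their roles. A red block joins the Kupffer cell genes Clec4f, Vsig4 and Fcna with C1q, Fcgr3, Cyba, Laptm5 and Coro1a, while most cells in the rows of Marco and Lgmn are pale or blue, apart from an r of 0.697 between Lgmn and Tyrobp.

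Of 8 pairs of functionally linked members chosen for a test, 5 had both genes tested, and the p-values were adjusted over these 5. C1qb and C1qc correlated over the 8 mice, with r = 0.925 (exact permutation p = 0.00164, adjusted p = 0.00409) and rho = 0.952 (exact permutation p = 0.00114, adjusted p = 0.00570). The relation held without the 2 mice farthest from the C1qb median, with r = 0.935. C1qa and C1qc gave r = 0.828 (exact permutation p = 0.0126, adjusted p = 0.0176) and rho = 0.810 (exact permutation p = 0.0218, adjusted p = 0.0272), but r = 0.436 without heterozygous replicate 3 and wild-type replicate 1, so this relation rests on those mice. C1qa and C1qb gave r = 0.618 (exact permutation p = 0.103, adjusted p = 0.103) and rho = 0.619 (exact permutation p = 0.115, adjusted p = 0.115), and r = 0.264 without the same 2 mice.

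Lyz1 and Lyz2 gave r = 0.881 (exact permutation p = 0.00159, adjusted p = 0.00409) and rho = 0.881 (exact permutation p = 0.00724, adjusted p = 0.0181), with r = 0.852 without the 2 farthest mice. Clec4f and Vsig4 gave r = 0.805 (exact permutation p = 0.0141, adjusted p = 0.0176) and rho = 0.810 (exact permutation p = 0.0218, adjusted p = 0.0272), with r = 0.833 without the 2 farthest mice. For both pairs the 6 mice left gave an adjusted p of 0.0949. Without heterozygous replicate 4, r was 0.932 for C1qb and C1qc, 0.828 for C1qa and C1qc, 0.593 for C1qa and C1qb, 0.909 for the lysozyme pair and 0.794 for Clec4f and Vsig4, and each kept its side of the threshold. Within the groups, from deviations, r was 0.889 for C1qb and C1qc, 0.920 for C1qa and C1qc, 0.667 for C1qa and C1qb, 0.892 for the lysozyme pair and 0.686 for Clec4f and Vsig4.

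**Figure D5:**
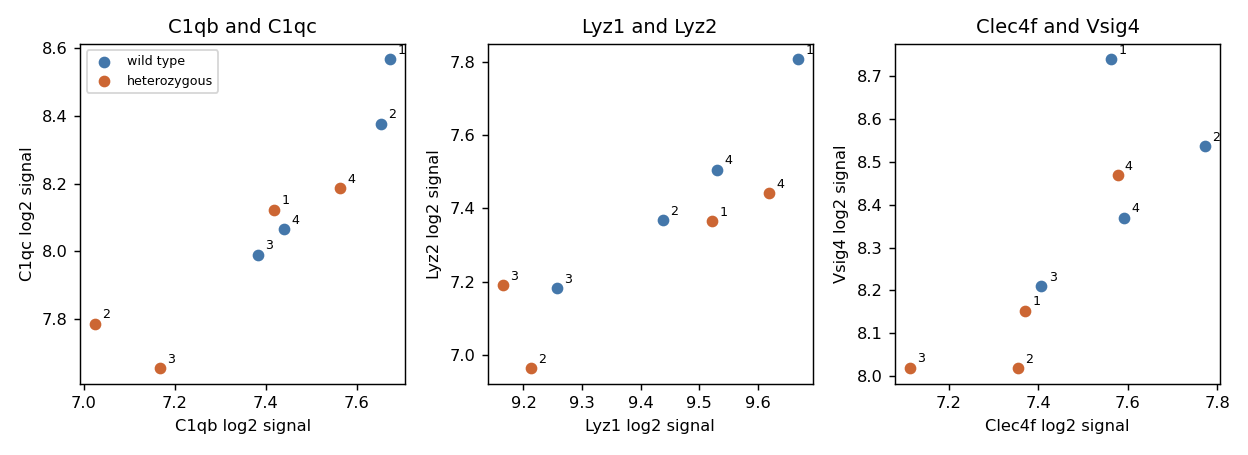
Log2 signals of C1qb against C1qc, Lyz1 against Lyz2 and Clec4f against Vsig4, with 1 point per mouse, coloured by genotype and numbered by replicate. Heterozygous replicates 2 and 3 lie at the lower left of each plot, and wild-type replicate 1 has the highest C1qc, Lyz1, Lyz2 and Vsig4 values.

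The promoters of the pairs with the highest r among the 5 tested pairs are shown because the probes of each pair varied together. For Lyz1 and Lyz2 this may be 1 signal read by both probes, which was not tested. By deviations from group means other member pairs were higher, such as Cyba and Laptm5 with r = 0.99. The windows of Cyba and Laptm5 held no match to the letters marked here, nor did those of the tested pair Clec4f and Vsig4. A link between the letters and the co-variation was not tested. The sequences are the 250 bases before the annotated start, from RefSeq with build GRCm38.p6, on the strand of the gene. Capitals mark the letters AGGAAGT, part of the binding sequence of PU.1 and other ETS factors, where they occur on the opposite strand and so read as ACTTCCT.
C1qb, chr4:136886201-136886450, minus strand: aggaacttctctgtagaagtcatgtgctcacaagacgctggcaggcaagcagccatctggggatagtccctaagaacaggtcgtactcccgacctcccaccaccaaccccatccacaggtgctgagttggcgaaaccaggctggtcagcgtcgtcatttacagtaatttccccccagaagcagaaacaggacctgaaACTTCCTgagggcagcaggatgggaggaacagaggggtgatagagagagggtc
C1qc, chr4:136892915-136893164, minus strand: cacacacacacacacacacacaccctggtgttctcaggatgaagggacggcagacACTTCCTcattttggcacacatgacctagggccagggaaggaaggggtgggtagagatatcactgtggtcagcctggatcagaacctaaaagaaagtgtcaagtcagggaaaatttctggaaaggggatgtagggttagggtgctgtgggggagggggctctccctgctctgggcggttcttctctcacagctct
Lyz1, chr10:117292869-117293118, minus strand: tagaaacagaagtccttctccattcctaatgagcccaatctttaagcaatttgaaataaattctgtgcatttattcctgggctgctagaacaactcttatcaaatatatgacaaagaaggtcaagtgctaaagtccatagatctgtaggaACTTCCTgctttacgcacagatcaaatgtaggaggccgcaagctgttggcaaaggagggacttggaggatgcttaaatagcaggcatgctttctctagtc
Lyz2, chr10:117282273-117282522, minus strand: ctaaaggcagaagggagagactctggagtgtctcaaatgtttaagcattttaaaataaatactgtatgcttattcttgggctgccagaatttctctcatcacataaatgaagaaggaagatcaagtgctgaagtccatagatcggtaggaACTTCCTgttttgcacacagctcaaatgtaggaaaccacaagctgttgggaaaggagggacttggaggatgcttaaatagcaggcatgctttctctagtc

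In these sequences the first letter of the match lies 53 bases before the start in C1qb, 195 in C1qc and 100 in both lysozyme genes. Compared position by position without gaps, 152 of the 250 bases, 60.8%, were the same in Lyz1 and Lyz2, and 92 of the last 100 before the start. Promoter windows from 250 bases before to 50 bases after the start were found by symbol for 30 of the 35 members. The letters AGGAAGT, searched on both strands, occurred for 13 of the 30 members, 43.3%, and for 10.7% of all genes with a window. By window these were 14 of 35 for the members, 40%, and 9.35% of all windows. Among the members with a match were Fcna, Spic, Folr2, Mrc1 and Ptprc, and among those without one Clec4f, Vsig4, Cd163, Cyba and Laptm5. A match is a run of letters and not a measured binding site.

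Other genes of the same cells were read from lists that hold no member. Of 17 tested among 22 further Kupffer cell genes, 12 were below 0, with a median of -0.13 and 0 past the limma threshold in either direction, and 2 were lower at an unadjusted p under 0.05. Mertk, a receptor kinase for the uptake of dying cells, had group means of 7.36 ± 0.07 (SD, n = 4) and 7.16 ± 0.05 (SD, n = 4), lower in heterozygous liver. Its groups did not overlap, as was so for 6.25% of all tested probes, and its log2 fold change was -0.21 ± 0.07 (SE; limma adjusted p = 0.378). Groups did not overlap either for Krt23, Itgae and the hepatocyte gene Ttr of the other lists, lower in heterozygous liver. The same held for the lysosomal gene Hexa, which was higher. Hpgd, the enzyme that inactivates prostaglandins, was at -0.26 ± 0.10 (SE; limma adjusted p = 0.398). The median r of these further Kupffer cell genes with the mean of the 6 Kupffer cell members was 0.29, beside 0.06 over 7940 ranked genes. Of the 17, 1, the metal transporter Slc11a1, was above 0.7, as were 8.53% of the ranked genes. Mertk stood at 0.59 and Hpgd at -0.17, and the part of other cells in these signals was not tested.

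The other myeloid lists had 0 genes past the limma threshold and 1, Ctsz, with an unadjusted p under 0.05. Of the myeloid transcription factors and growth signals 6 of 15 were tested, with a median of -0.0043, Tgfb1 at -0.20 and Tgfbr1 at 0.16. The oxidase partners had 3 of 6 tested and a median of -0.06, with Rac1 at -0.06 and the proton channel Hvcn1 at -0.06. Genes of Fc receptor signalling had 3 of 15 tested and a median of -0.05, with Fcgrt, the neonatal Fc receptor, at -0.08 and the phosphatase Ptpn6 at 0.07. General lysosomal genes, which hepatocytes express too, were 16 tested of 18 with 5 below 0 and a median of 0.02, led by the cathepsin Ctsz at 0.34 and the proton pump subunit Atp6v1a at -0.18. Toll-like receptors and partners of CD14 had 6 of 12 tested and a median of 0.04, with Ly96 at -0.37 and Traf6 at 0.15.

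Genes of recruited monocytes and inflammation were mostly undetected. Of 24 listed, 12 were detected on 0 arrays, among them Ccr2, Cx3cr1, Itgam, Ccl2, Tnf and Il6, and 8 were tested, with a median of -0.07. S100a6 was at 0.20, and Arg1, the urea cycle enzyme that hepatocytes express at a high level, at 0.13. For the undetected genes a difference between genotypes was not detectable at this signal.

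Markers of other liver cells were set beside these values. The sinusoidal endothelial list, 18 tested of 22, had 12 genes below 0, a median of -0.09 and 0 past the threshold, with Flt4 at -0.25 and Pecam1 at -0.23. Its summed normalized signal was 6358 to 7409 in wild type and 6188 to 7256 in heterozygous liver, its median r with the Kupffer cell members was 0.48, and 5 of the 18 genes, Egfl7, Gpr182, Clec4g, Cdh5 and Dnase1l3, were above 0.7. Among 7940 ranked genes the median r was 0.06 and 8.53% were above 0.7. The stellate list had a median r of 0.19 and 1 gene above 0.7, Ngfr at 0.85. Of the other lists, the lysosomal genes Grn, at 0.86, and Cd63, at 0.71, were above 0.7 as well. So were Ptpn6 at 0.78 and Cd9 at 0.74. The endothelial share in the signals of Mrc1 and Fcgr2b was not tested. Stellate cell genes, 10 tested of 14, had a median of -0.12, a summed signal of 3045 to 4171 in wild type and 3185 to 3359 in heterozygous liver, and Ngfr at -0.38 and Rgs5 at -0.28. It had 0 genes past the limma threshold and 1 lower at an unadjusted p under 0.05, and the endothelial list had 0 by either.

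Few lymphocyte, granulocyte and dendritic cell genes were tested, and a probe at background does not show that its transcript is absent. T and NK cell genes had 2 tested of 18, Prf1 at 0.21 and Klrb1c at 0.15, while Cd3e, Cd3d and Cd8a were detected on 0 arrays. B cell genes had 1 of 10, Blnk at -0.0068, with Cd79a and Ms4a1 on 0 arrays. Neutrophil genes had 2 of 11, S100a8 at -0.40 and Lcn2 at 0.05, with S100a9, Ltf and Mpo on 0 arrays. Dendritic cell genes had 2 of 10, Itgae at -0.30 and Zbtb46 at -0.04, with Xcr1, Clec9a and Flt3 on 0 arrays. Of these lists 0 genes passed the limma threshold, and 1, Itgae, was lower at an unadjusted p under 0.05.

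Red cell genes had 3 tested of 7, all below 0 with a median of -0.43, Hba-a1 at -0.45, Hbb-b2 at -0.43 and Alas2 at -0.03. Their summed signal was 8264 to 12837 in wild type and 7468 to 8869 in heterozygous liver. Of the 3 genes, 0 passed the limma threshold and 2 were lower at an unadjusted p under 0.05. Hepatocyte genes had a median of 0.04 with Hnf4a at 0.19 and Serpina1a at 0.16. In the bile duct list, with 2 of 9 genes tested, Krt23 was the 1 probe of the whole array past the threshold, lower in heterozygous liver by a log2 difference of -1.36 ± 0.13 (SE; limma adjusted p = 0.0104), beside Krt7 at -0.03. The part of blood or of other cells in the Kupffer cell values was not tested.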

How the data were processed

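The authors deposited a table of non-normalized signal intensity with a detection p-value for each probe and array, per the file headers, and a second table of processed intensity of the same arrays. Signals came from GenomeStudio 2011.1, per the submitters' processing notes. The method behind the processed table is not given in the sources used here.

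Background was corrected with nec of limma 3.58.1 in R 4.3.3, an offset of 16 was added, and arrays were quantile normalized and taken as log2. The offset understates fold changes of dim probes. Of all probes, 23978 had 1 symbol and 1719 none. Genotypes were compared over 4 arrays against 4 with lmFit and eBayes, two-sided, adjusted over 11412 probes. Permutation tests were exact and two-sided. Numbered mice are separate animals per the labels, and no slide or day is named, so a slide block was not run.

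Tested on simulated data with 11412 probes, the fit recovered 40 of 67 shifts of 0.5 on the log2 scale and 62 of 67 shifts of 1. These were planted together with 66 shifts of 2, and many true shifts ease the adjusted threshold. The simulated probes varied independently and were drawn from all tested probes, whose median pooled SD was 0.15 against 0.22 for the members. The recovered shares therefore do not give the chance of calling a member. The members, lists and tests were chosen with earlier results of these data known. Every member was named, and in each list the 2 genes with the smallest unadjusted p. Genes given for detection on 0 arrays, for a high r or for groups without overlap were named after their values were seen, as was Alas2.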

Additional observations from a re-analysis of the deposited data

Results flagged for a closer look

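Timd4, the phosphatidylserine receptor of resident Kupffer cells, had a log2 signal of 5.24 in heterozygous replicate 3, against 5.77 to 5.82 in the other 3 heterozygous mice. It was the 1 set with a mouse far from the other 3 among 46 sets of 4 values, where chance gives about 1 in 20, or 2.3.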

How the results depend on the processing

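The count of members past the threshold stayed at 0 under all 18 alternatives. Members with an unadjusted limma p under 0.05 in either direction numbered 1 in the main fit and 1 to 7 under the alternatives. There were 7 without heterozygous replicate 4 and 5 with median scaling, and the share of all probes in those fits was not computed. The 1 probe called over the whole array became 0 when background was not corrected, 0 when dim probes were kept and 0 in the fit with a replicate block, and the count ranged from 0 to 7 when 1 array was left out. The numbers are not known to pair the mice: same-numbered deviations correlated at -0.07, 0.13, 0.10 and 0.08, and 2 of 4 wild-type mice correlated best with their own number. The block changed no member's call. The median of the members was -0.08 without background correction, -0.09 with an offset of 50 and -0.07 without the filter, where 26 of 32 genes were below 0, and it ranged from -0.23 to -0.10 with 1 array left out, with 16 to 22 of 23 genes below 0. Of 408 gene values under the alternatives, 383 kept their sign and 25 did not, in 9 genes. Adgre1 was at -0.047 and Lyz2 at 0.0055 with the mean of probes, Ctsc at 0.0019 without background correction, and with array weights Laptm5 was at 0.0026 and Timd4 at 0.0088. With 1 array left out the ranges that crossed 0 were -0.042 to 0.18 for Adgre1, -0.12 to 0.11 for Aif1, -0.14 to 0.067 for C1qa, -0.21 to 0.13 for Ctsc, -0.11 to 0.13 for Laptm5, -0.21 to 0.0070 for Marco, -0.076 to 0.12 for Timd4 and -0.072 to 0.040 for Tyrobp. Ranges that stayed on 1 side of 0 were, among others, -0.45 to -0.06 for Cd163, -0.27 to -0.03 for Cyba, -0.17 to -0.02 for Lyz1, -0.32 to -0.11 for Lyz2, -0.23 to -0.06 for Fcgr3, -0.24 to -0.08 for Fcgr2b, -0.27 to -0.11 for Coro1a, -0.30 to -0.15 for Clec4f, -0.33 to -0.15 for C1qb, -0.40 to -0.21 for C1qc, -0.34 to -0.14 for Mrc1 and 0.047 to 0.25 for Cd14. The cause was not tested. Members near background have little room for a fold to show.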

Other observations

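Outside the lists, the genes whose deviations from the group means followed the 6 Kupffer cell members most closely over the 8 arrays, among 7940 ranked, were Ccnd3, a D-type cyclin (r = 0.978), Rab31, a small GTPase of vesicle transport (0.973), Dcp1b, a decapping protein (0.968), Ndrg1 (0.959), Rfx4 (0.959), Nudt16 (0.956), Taf15 (0.956), Wfdc17 (0.956), Trp53i11 (0.955) and Plvap, a protein of endothelial fenestrae (0.951). With 8 arrays and this many genes such values are a description of these mice. The 6 members themselves had an r with their mean of 0.36 for Marco to 0.93 for Clec4f, below every gene named here. The log2 fold changes of the genes named here ran from -0.48 for Rfx4 to 0.28 for Ndrg1. The pooled within-group SD of Ndrg1, at 0.60, was larger than that of any of the 23 members.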
